A study of Mus musculus with 12 samples.

Results

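The T cell lineage genes described here are a set of 10 genes chosen by symbol: Cd3d, Cd3e, Cd3g and Cd247, which encode chains of the CD3 signalling complex, Lck, Cd4, Cd8a, Cd8b1, Foxp3 and Cd2. They were looked up in a table of raw read counts for 23479 gene symbols. All 10 were in the table, and all 10 passed the filter on low counts, which kept 15082 symbols. RNA was measured in bulk from 12 orthotopic prostate tumours in C57BL/6J hosts, each started with 100000 PTE-82 prostate cancer cells, labelled TMPRSS2-ERG positive, in 40 µl of PBS and Matrigel. The 4 groups held 3 tumours each. They received control IgG, an antibody against the growth factor CSF1 (anti-CSF1) on days 9 and 14, Lupron at 0.6 mg per mouse on day 4, or Lupron with anti-CSF1 (the combination). All tumours were taken on day 17 after perfusion with PBS. Lupron is a drug that acts on the pituitary and lowers testosterone. No age of the mice is given in the labels, and they do not say whether the Lupron group received control IgG. All tumours came from 1 injected line, in mice that keep their own immune cells, and whether each replicate came from its own mouse is not stated. The p-values therefore measure only the spread between these samples.

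T cells recognise peptides through the T cell receptor, and the CD3 chains carry that signal into the cell, where the kinase LCK acts first. CD4 marks helper T cells and binds MHC class II, while CD8, a pair of an alpha and a beta chain, marks cytotoxic T cells and binds MHC class I. FOXP3 is the transcription factor that defines regulatory T cells, and CD2 is an adhesion receptor of T and natural killer (NK) cells. Some of these genes are not limited to T cells: CD4 is also made by some mouse macrophages and dendritic cells, CD8 alpha by a subset of dendritic cells, and CD247, LCK and CD2 by NK cells. CSF1 keeps macrophages alive through the receptor CSF1R.

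The table gives no coordinates, and positions were taken from GENCODE M21 on GRCm38, the assembly that mm10 names. All 10 are protein-coding. Cd3g (chromosome 9, 44969572 to 44980431, minus strand), Cd3d (44981786 to 44987339, plus strand) and Cd3e (44998740 to 45009627, minus strand) lie side by side. Cd8b1 (chromosome 6, 71322788 to 71337494, plus strand) and Cd8a (71373427 to 71379173, plus strand) are neighbours, and Cd4 lies on the same chromosome at 124864692 to 124888221, minus strand. Cd247 is on chromosome 1 (165788681 to 165877277), Lck on chromosome 4 (129548344 to 129573641), Cd2 on chromosome 3 (101275899 to 101287939) and Foxp3 on the X chromosome (7573644 to 7595245). Exons of other genes, some on the opposite strand, overlap 3213 of the 5329 exon bases of Cd247 and 1443 of the 4577 of Foxp3. Since the strand setting of the counting is not given, the counts of these 2 genes are less certain than those of Cd4, Cd3d, Cd3g, Cd8a, Cd8b1 and Cd2, whose exons overlap no other annotated gene.

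Upstream sequence is shown for Cd3e and Cd8a, a pair whose levels ran together over the 12 tumours (Pearson r = 0.90) and whose genes lie on different chromosomes. RefSeq (GRCm38.p6) start sites were matched for 7 of the 10 genes. Each line gives the 250 bases before the start, 5′ to 3′ on the gene's strand, from chr9:45009612-45009861 (minus strand) for Cd3e and chr6:71373177-71373426 (plus strand) for Cd8a. Capitals mark E-boxes, the motif CANNTG, which reads the same on both strands and is bound by a family of transcription factors that act in lymphocytes.
Cd3e: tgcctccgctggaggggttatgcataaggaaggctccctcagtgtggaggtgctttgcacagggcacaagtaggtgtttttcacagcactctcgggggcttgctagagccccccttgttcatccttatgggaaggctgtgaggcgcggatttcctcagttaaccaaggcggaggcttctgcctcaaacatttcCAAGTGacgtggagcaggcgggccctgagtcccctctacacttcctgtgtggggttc
Cd8a: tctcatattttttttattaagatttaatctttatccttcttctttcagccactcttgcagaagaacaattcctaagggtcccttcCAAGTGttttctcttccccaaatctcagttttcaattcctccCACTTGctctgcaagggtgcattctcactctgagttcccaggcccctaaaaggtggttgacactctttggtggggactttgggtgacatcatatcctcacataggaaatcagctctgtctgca
The Cd3e window held 1 E-box and the Cd8a window 2. Of 32851 windows of the same length in the RefSeq table, 66.2% held at least 1, so the matches describe these letters and set neither gene apart.

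Total counts ran from 20584363 to 29965355 per library, and RNA integrity numbers from 8.2 to 9.8. Levels are CPM, the usual per-library scaling of a count by total reads, with library sizes corrected by TMM factors. Members were thinly expressed: the lowest count was 4 (Foxp3 in anti-CSF1 replicate 2) and the highest 617 (Cd3e in Lupron replicate 3). Erg lay between 8.01 and 22.4 CPM, the epithelial keratin gene Krt8 between 26.0 and 286, and the leukocyte gene Ptprc between 27.1 and 142, with 0 libraries lacking any of them. IgG replicate 3 stood apart from the other libraries. It was the lowest of the 12 for 5 members and among the lowest 3 for 9 of 10, and its summed level over all 10 was 15.3 CPM, against 18.7 to 91.7 in the other tumours. Where leaving it out changed a direction or a call for a member or a ratio, the value without it is given beside the result. No pair of libraries looked like 1 library deposited more than once: their counts differed by a chi-square per degree of freedom of at least 38.0 in each of 66 pairs.

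Per kilobase of exon, which allows levels of different genes to be compared, Cd2 had the highest mean over the 12 tumours (3.21 CPM per kb), followed by Cd3e (2.48), Cd8b1 (1.96), Cd3g (1.90), Cd8a (1.86), Lck (1.73), Cd4 (1.61) and Cd3d (1.21). Cd247 (0.331) and Foxp3 (0.221) were lowest. The spread over tumours was wide beside these differences: the highest tumour exceeded the lowest 5.16-fold for Cd2 and 21.4-fold for Cd8b1, the ends of the range over the 10 genes. Neighbours in the order from Cd8b1 to Cd4 therefore differed by less than their spread.

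**Figure D1:**
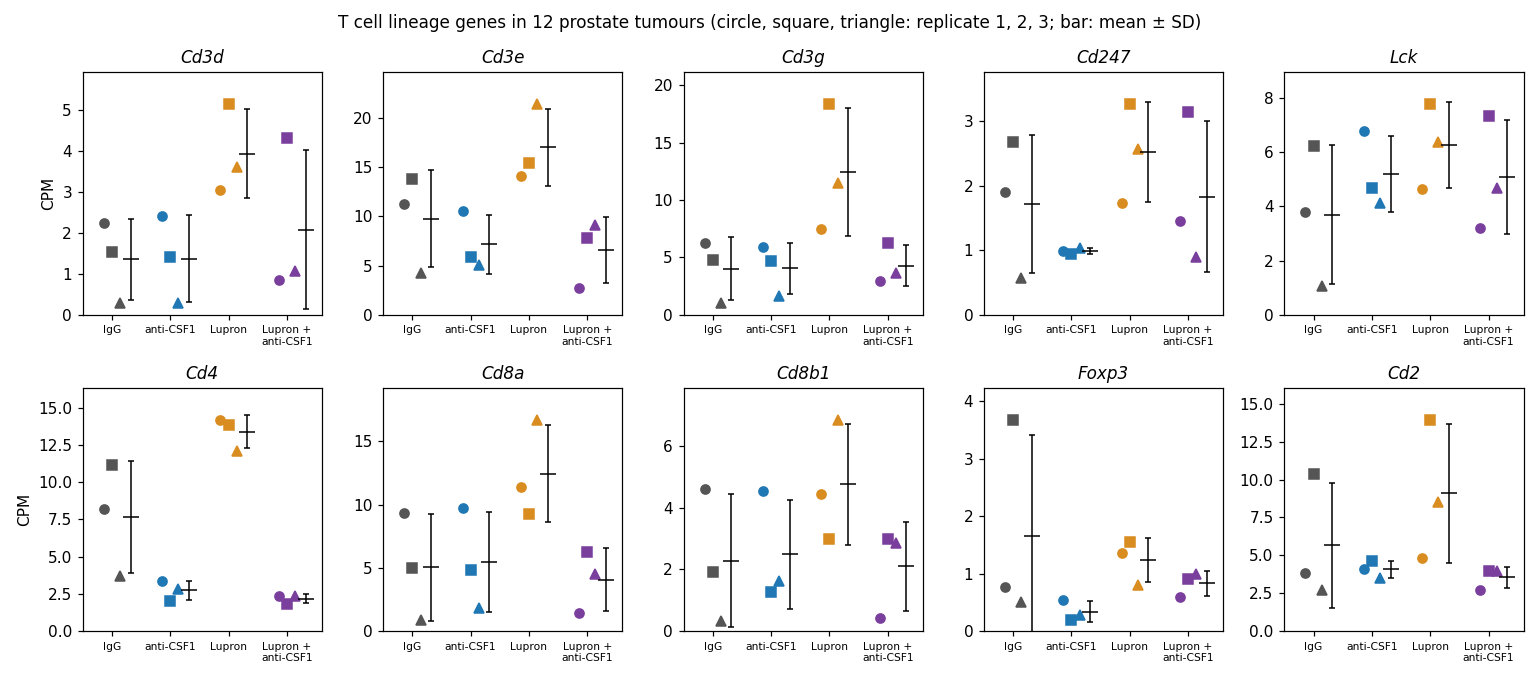
Levels of the 10 genes, in CPM, in each of the 12 tumours by treatment group, with circles, squares and triangles for replicates 1, 2 and 3, and bars for the mean ± SD of 3 tumours (bars that reach below 0 are cut there). The 6 tumours given anti-CSF1 lie between 1.81 and 3.33 CPM for Cd4, below all 6 others, while Lck overlaps among all 4 groups.

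Cd4 fell in the tumours given the antibody, and it was the 1 member of 10 that passed the test. It stood at 8.18, 11.1 and 3.67 CPM in IgG replicates 1, 2 and 3, and at 3.33, 2.04 and 2.81 with anti-CSF1. With Lupron it stood at 14.2, 13.8 and 12.1 CPM, and with the combination at 2.39, 1.81 and 2.34. None of the 6 antibody-treated tumours reached the level of any of the 6 untreated with it, and the nearest were IgG replicate 3 and anti-CSF1 replicate 1. In order, the group means were 13.4 ± 1.11 (SD, n = 3) with Lupron, 7.66 ± 3.77 with IgG, 2.73 ± 0.65 with anti-CSF1 and 2.18 ± 0.319 with the combination, and the last 2 overlapped. The antibody's effect averaged over tumours with and without Lupron was 4.14-fold lower (log2 −2.05 ± 0.28, adjusted p = 0.00798, edgeR quasi-likelihood F test, Benjamini-Hochberg over all genes). Of all genes tested, 1.87% passed in this comparison, and 1.79% passed as lower. A level below all tumours of the other set, as Cd4 had, was found for 1.69% of genes. Leaving out each library in turn gave Cd4 changes from −2.21 to −1.86, with adjusted p from 0.000117 without IgG replicate 3 to 0.0389 without anti-CSF1 replicate 3. In bulk RNA, fewer cells of a type and less RNA per cell cannot be told apart.

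Macrophage markers moved with Cd4. The summed level of the 20 macrophage genes listed ran from 690 to 2411 CPM with IgG and from 2011 to 2330 with Lupron, against 375 to 605 with anti-CSF1 and 359 to 499 with the combination. With the antibody averaged over Lupron, 16 of these 20 genes passed as lower and 0 as higher, where 1.79% of all genes passed as lower. The median log2 change of the 20 was −2.35, where the median of all genes was 0.021. The 1 marker without counts in a group was Vsig4, in the combination. Csf1r itself averaged 104 ± 48.6 CPM in the IgG group and 108 ± 29.3 in the Lupron group, against 21.1 ± 8.89 under anti-CSF1 and 19.6 ± 4.46 under the combination (log2 −2.38 ± 0.31, adjusted p = 0.00798). The part of macrophage RNA in the Cd4 level was not tested.

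Taken separately, the antibody's effects on Cd4 with and without Lupron pointed the same way but missed the threshold. Without Lupron the estimate was −1.49 ± 0.39 (adjusted p = 0.092), and it passed without IgG replicate 1 (−1.43, 0.0476) or IgG replicate 3 (−1.82, 0.0134), while the other 10 fits without a library gave adjusted p up to 0.291. On top of Lupron it was −2.61 ± 0.41 (adjusted p = 0.058), and it passed without IgG replicate 2 (0.0413) or IgG replicate 3 (0.000859). Those 2 tumours are in neither group compared. They bear on it through the shared fit (filter, scaling and spread) and the adjustment over all genes. The estimate did not pass without any 1 of the 6 tumours compared (0.216 to 0.381). A fit to the compared groups alone gave 0.302 without Lupron and 0.00262 on top of it. By edgeR, 0 of 10 members were called in either comparison, while 2 and 4 members had an unadjusted p under 0.05, where 22.8% and 4.26% of all genes did. DESeq2 called Cd4 alone among the members in both (adjusted p = 0.00371 and 1.21e-07). Over all genes, edgeR called 0.00663% without Lupron and 0% on top of it, and DESeq2 12.3% and 1.61%. In the averaged comparison DESeq2 called 9.54% of genes and again Cd4 as 1 of the 10. The difference between the antibody's effects with and without Lupron was −1.13 ± 0.54 for Cd4 (adjusted p = 0.749).

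Of the CD3 chains, 0 of 4 passed in any comparison by edgeR. Over all genes, 1.87% passed in the averaged antibody comparison, 0.00663% in anti-CSF1 against IgG and 0% in the rest. Cd3e, the epsilon chain, stood at 11.2, 13.8 and 4.27 CPM with IgG, at 10.6, 5.83 and 5.05 with anti-CSF1, at 14.1, 15.4 and 21.4 with Lupron, and at 2.74, 7.84 and 9.09 with the combination. The 3 Lupron tumours were the highest of the 12, and the IgG and anti-CSF1 groups overlapped. Averaged over Lupron, the antibody's estimate was −0.91 ± 0.36 (adjusted p = 0.215). It was −0.45 ± 0.51 without Lupron (0.595) and −1.37 ± 0.52 on top of it (0.797), where the 3 tumours of each group did not overlap.

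Cd3g and Cd3d, the gamma and delta chains, followed each other closely (Pearson r = 0.94, Spearman rho = 0.96 on log2 of CPM plus 1, over 12 tumours that share 4 treatments). Cd3g stood at 6.28, 4.80 and 0.997 CPM with IgG, at 5.92, 4.69 and 1.60 with anti-CSF1, at 7.44, 18.4 and 11.5 with Lupron, and at 2.93, 6.29 and 3.65 with the combination. IgG and anti-CSF1 lay on top of each other (0.017 ± 0.66, adjusted p = 0.99), though the estimate was −0.445 without IgG replicate 3. Each Lupron tumour exceeded every tumour of the other 3 groups. Cd3d stood at 2.25, 1.54 and 0.285 CPM with IgG, at 2.42, 1.42 and 0.284 with anti-CSF1, at 3.04, 5.16 and 3.61 with Lupron, and at 0.861, 4.32 and 1.07 with the combination. It overlapped between the antibody groups and those without it, in both arms. Averaged estimates were −0.76 ± 0.47 for Cd3g (adjusted p = 0.383) and −0.45 ± 0.63 for Cd3d (0.699). Cd247, the zeta chain, ran from 0.570 CPM in IgG replicate 3 to 3.27 in Lupron replicate 2, with anti-CSF1 tumours tightly between 0.948 and 1.03 (averaged −0.63 ± 0.45, adjusted p = 0.452).

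The CD8 genes, which encode the 2 chains of 1 receptor, tracked each other (r = 0.94, rho = 0.93, n = 12 tumours) and did not pass. Cd8a stood at 9.32, 4.97 and 0.854 CPM with IgG, at 9.70, 4.83 and 1.85 with anti-CSF1, at 11.4, 9.29 and 16.7 with Lupron, and at 1.41, 6.29 and 4.51 with the combination. Without Lupron the 2 groups nearly coincided, and with Lupron all 3 tumours of the combination lay below all 3 given Lupron alone. The estimates were 0.12 ± 0.80 (adjusted p = 0.939) and −1.62 ± 0.82 (0.9997), and the test of their difference gave −1.73 ± 1.14 (0.841). The estimate without Lupron was −0.39 when IgG replicate 3 was left out. Cd8b1 stood at 4.60, 1.92 and 0.320 CPM with IgG, at 4.52, 1.28 and 1.64 with anti-CSF1, at 4.43, 2.98 and 6.84 with Lupron, and at 0.430, 2.99 and 2.86 with the combination. These groups overlapped in every pair of treatments compared (averaged −0.53 ± 0.64, adjusted p = 0.651).

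Foxp3 was the lowest member, and 1 tumour set its IgG mean. It stood at 0.761, 3.67 and 0.498 CPM with IgG, at 0.544, 0.190 and 0.284 with anti-CSF1, at 1.35, 1.55 and 0.799 with Lupron, and at 0.587, 0.906 and 0.998 with the combination. The value of IgG replicate 2 rests on 88 reads, and the 3 anti-CSF1 tumours had 16, 4 and 8. Anti-CSF1 against IgG gave −2.25 ± 0.83 (adjusted p = 0.151), and −0.87 without IgG replicate 2. The averaged estimate was −1.41 ± 0.57 (0.221), and −0.71 without IgG replicate 2.

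Lck and Cd2, which NK cells also use, did not pass. Lck stood at 3.81, 6.22 and 1.07 CPM with IgG, at 6.80, 4.69 and 4.12 with anti-CSF1, at 4.63, 7.80 and 6.39 with Lupron, and at 3.21, 7.36 and 4.68 with the combination. It was the 1 member with a positive averaged estimate (0.096 ± 0.39, adjusted p = 0.905), which turned to −0.12 without IgG replicate 3, −0.083 without combination replicate 2 and −0.023 without anti-CSF1 replicate 1. Cd2 stood at 3.81, 10.4 and 2.74 CPM with IgG, at 4.08, 4.64 and 3.48 with anti-CSF1, at 4.80, 13.9 and 8.54 with Lupron, and at 2.70, 3.95 and 3.96 with the combination (averaged −0.92 ± 0.37, 0.218). With the antibody its range was narrow, and the 3 tumours of the combination lay below all 3 given Lupron.

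**Figure D2:**
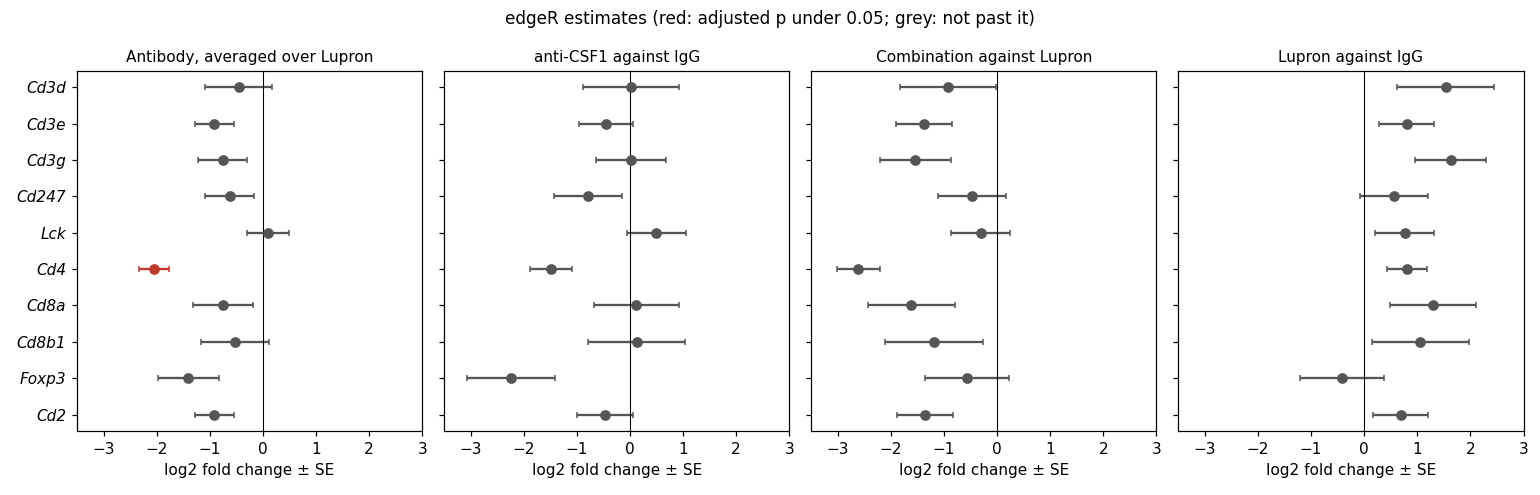
Log2 fold change ± standard error from edgeR for each of the 10 genes in 4 comparisons, with red for an adjusted p under 0.05. Cd4 in the averaged antibody comparison (−2.05 ± 0.28) is the 1 point past the threshold; the members' estimates lie mostly below 0 on top of Lupron and above 0 for Lupron against IgG.

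Over the 10 genes, 9 had a negative averaged estimate for the antibody, with a median of −0.75, where 47.8% of all genes were negative and their median was 0.021. Without Lupron 5 were negative and 5 positive (median −0.22). Of the 5 positive, 4 turned negative without IgG replicate 3: Cd3d (−0.46), Cd3g (−0.445), Cd8a (−0.39) and Cd8b1 (−0.39). On top of Lupron all 10 were negative (median −1.27). The tumours of the combination lay below all those given Lupron alone for 5 of 10 members (Cd3e, Cd3g, Cd4, Cd8a and Cd2), where 6.93% of all genes did so. Anti-CSF1 tumours lay below all IgG tumours for 1 of 10 (Cd4), where 12.8% of all genes did. The members share the same 12 tumours, so these are not 10 separate observations. By edgeR, 0 of 10 passed for the difference between the antibody's effects with and without Lupron, where 0% of all genes did, and 0 had an unadjusted p under 0.05, where 6.77% of all genes did.

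Lupron without the antibody was set against IgG to see what the hormone treatment did alone. For 4 of 10 members (Cd3d, Cd3e, Cd3g and Cd4) all 3 Lupron tumours lay above all 3 IgG tumours, where 11.1% of all genes did so. By edgeR 0 of 10 passed, where 0% of all genes passed, and 1 member, Cd3g, had an unadjusted p under 0.05 (1.63 ± 0.67, adjusted p = 0.288), where 16.4% of all genes did. Cd4 had 0.80 ± 0.38 (0.312) and Cd3d 1.53 ± 0.91 (0.381). Foxp3 alone had a negative estimate (−0.41 ± 0.79, 0.786), which was 0.97 without IgG replicate 2. Averaged over tumours with and without the antibody, all 10 estimates for Lupron were positive, with a median of 0.42 (all genes −0.023), 0 of 10 passed and 0% of all genes did. DESeq2 called 0 of 10 in both Lupron comparisons, where it called 2.71% of all genes against IgG and 0.0804% averaged. The low levels of IgG replicate 3 enter each of these. Without it the estimates against IgG were 0.47 for Cd4 and 1.16 for Cd3g.

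Whether Cd4 changed more than the chains that mark T cells was tested with ratios of reads within a library, which do not depend on library scaling. Cd4 reads per Cd3e read were 0.731, 0.807 and 0.858 with IgG and 1.01, 0.896 and 0.566 with Lupron. They were 0.316, 0.350 and 0.556 with anti-CSF1 and 0.871, 0.231 and 0.258 with the combination. In 5 of 6 tumours with the antibody the ratio lay below all 6 without it. Combination replicate 1, the tumour with the lowest Cd3e (2.74 CPM), was the exception. The mean log2 ratio was −1.37 ± 0.72 (SD, n = 6) with the antibody and −0.33 ± 0.29 without it, a difference of −1.05 (exact two-sided permutation p = 0.0173, 0.0693 after Benjamini-Hochberg adjustment over 8 ratios). The difference was −1.01 without and −1.09 with Lupron.

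Against the other chains the Cd4 ratio was lower as well, by amounts from −1.27 to −1.51, and 1 of the 6 Cd4 ratios passed after adjustment. Cd4 to Cd247 differed by −1.43, with all 6 antibody tumours below all 6 others (exact permutation p = 0.00216, the smallest that 924 splits can give, adjusted 0.0173). Its denominator, Cd247, is the member whose exons overlap other genes most. Cd4 to Cd3g differed by −1.33 (exact permutation p = 0.026, adjusted 0.0693) and Cd4 to Cd3d by −1.36 (0.0758, adjusted 0.101), each with 4 of 6 antibody tumours below all others. Against the CD8 chains the differences were −1.27 for Cd8a (exact permutation p = 0.0563, adjusted 0.0901) and −1.51 for Cd8b1 (0.0433, adjusted 0.0866). Cd4 and its denominators were known to differ from earlier results of these libraries, so the ratios are not independent evidence of that. IgG replicate 3 had the highest Cd4 to Cd3d, Cd3g, Cd8a and Cd8b1 ratios of all tumours, at 12.9, 3.68, 4.29 and 11.4 reads per read. Without it the differences were −1.09 for Cd3d (exact permutation p = 0.16), −1.09 for Cd3g (0.052), −0.97 for Cd8a (0.11) and −1.21 for Cd8b1 (0.0844), so those of Cd3g and Cd8b1 no longer had an unadjusted p under 0.05.

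**Figure D3:**
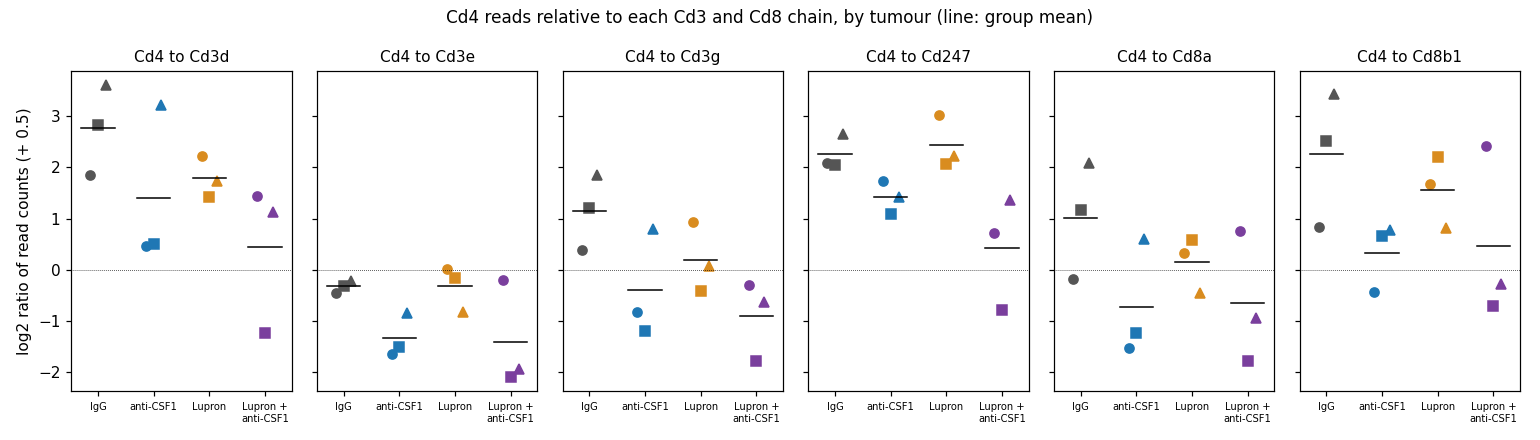
Log2 ratio of Cd4 reads to the reads of each CD3 and CD8 chain, 1 point per tumour, with group means as lines. For Cd247 all 6 antibody tumours lie below all 6 others, and for Cd3e combination replicate 1 is the exception.

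Ratios of Cd8a and Foxp3 to Cd3e, averaged over Lupron, did not pass the test. Cd8a reads per Cd3e read were 0.833, 0.359 and 0.200 with IgG, 0.919, 0.829 and 0.366 with anti-CSF1, 0.806, 0.602 and 0.780 with Lupron, and 0.514, 0.803 and 0.496 with the combination. The difference in log2 ratio was 0.22 (exact permutation p = 0.617, adjusted 0.673), and −0.057 without IgG replicate 3. Foxp3 reads per Cd3e read ran from 0.0325 to 0.0563 with anti-CSF1, from 0.068 to 0.266 with IgG, from 0.0373 to 0.1004 with Lupron and from 0.110 to 0.214 with the combination. The antibody tumours were therefore lower than IgG without Lupron and higher than Lupron with it, by −1.43 and 0.98 in log2 ratio, and the average over these opposite differences was −0.22 (exact permutation p = 0.673, adjusted 0.673). The difference between those 2 values was not tested. Foxp3 itself had negative edgeR estimates in both arms (−2.25 without Lupron and −0.565 with it).

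Within the 6 tumours of each set, Cd4 was also compared with Cd3e and with Csf1r on log2 of CPM plus 1, in a family of 6 relations. Each set mixed 3 tumours without Lupron and 3 with it. An r can therefore carry the difference between those groups, and the permutations did not keep the groups apart. Without the antibody, Cd4 ran with Cd3e (Pearson r = 0.92, exact permutation p = 0.0208, adjusted 0.0416; rho = 0.77, p = 0.103, adjusted 0.204), and r was 0.93 without the 2 tumours farthest out. For both genes all 3 Lupron tumours exceeded all 3 IgG tumours. Among Lupron replicates 1, 2 and 3, Cd3e rose (14.1, 15.4 and 21.4 CPM) while Cd4 fell (14.2, 13.8 and 12.1). Among the IgG tumours the 2 genes had the same order. With the antibody Cd4 did not run with Cd3e (r = 0.18, exact permutation p = 0.717; rho = 0.086, p = 0.919), and r was −0.46 in the trimmed set. Cd4 on Csf1r gave r = 0.81 with the antibody (exact permutation p = 0.0417, adjusted 0.0625; rho = 0.94, p = 0.0167, adjusted 0.1; trimmed r = 0.82). Without it, r was 0.72 (exact permutation p = 0.0986, adjusted 0.118; rho = 0.31, p = 0.564) and 0.38 trimmed. Cd8a on Cd3e gave r = 0.89 with the antibody (exact permutation p = 0.0167, adjusted 0.0416; rho = 0.83, p = 0.0583; trimmed r = 0.69). Without the antibody it gave r = 0.93 (exact permutation p = 0.0194, adjusted 0.0416; rho = 0.71, p = 0.136), but −0.03 once IgG replicate 3 and Lupron replicate 3 were left out, so that relation rests on them. With the antibody, Cd4 spanned 1.81 to 3.33 CPM and Cd8a 1.41 to 9.70. The differences between sets, and between relations, were not tested.

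**Figure D4:**
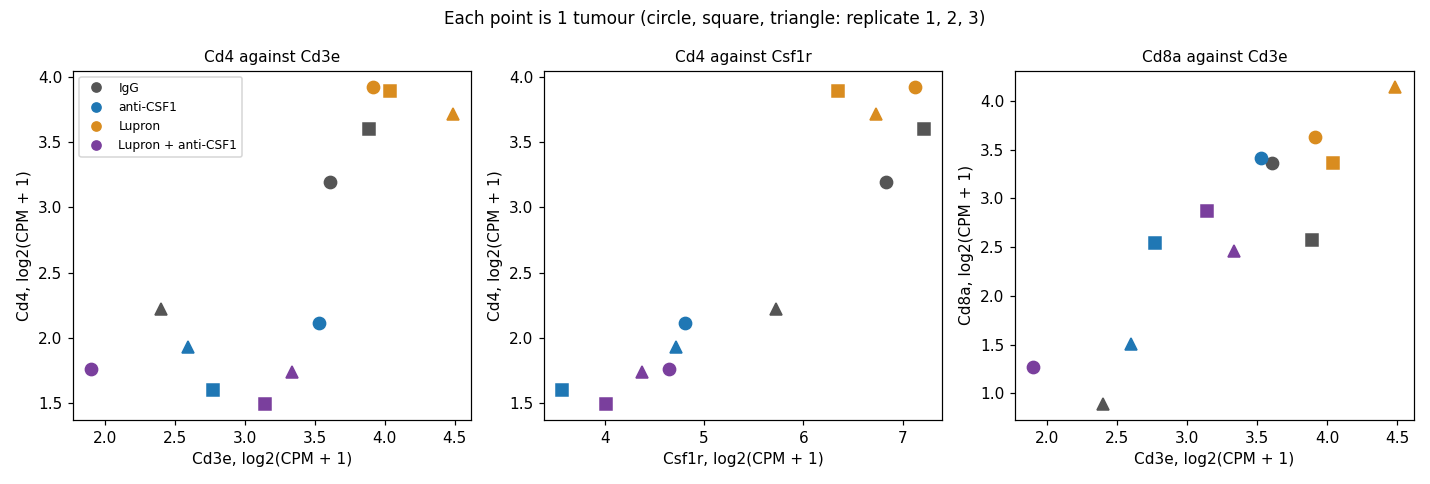
Levels of Cd4 against Cd3e, Cd4 against Csf1r, and Cd8a against Cd3e, on log2 of CPM plus 1, with 1 point per tumour coloured by group. The 6 antibody tumours form a low band for Cd4, 1.81 to 3.33 CPM, over their own range of Cd3e, 2.74 to 10.6 CPM (r = 0.18). In them Cd8a, which spans a wider 1.41 to 9.70 CPM, runs along with Cd3e (r = 0.89, rho = 0.83). The difference between these r values was not tested.

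The genes whose levels were most like each member's over the 12 tumours were listed among 12892 genes with a mean of at least 1 CPM. These are descriptions over tumours that share 4 treatments. The 5 most like Cd4 were the complement genes C1qb (r = 0.99, rho = 0.98) and C1qa (0.98, 0.94), the MHC class II loading gene H2-DMb1 (0.98, 0.90), Aif1 (0.98, 0.92) and Ly86 (0.97, 0.83). Those near Cd3e included Batf (r = 0.92), Ltb (0.92), Cd8a (0.90) and the checkpoint receptor gene Pdcd1 (0.90). Those near Cd8a included Nlrc5, a regulator of MHC class I genes (0.94), Cd8b1 (0.94), Cd3e (0.90) and Pdcd1 (0.89). For Foxp3 they were Slfn1 (0.90), Gss (0.88), Rnf149 (0.87), Clec12a (0.87) and Ly6c2 (0.87). Among the members themselves, Cd4 had its highest r with Cd3e (0.78) and its lowest with Lck (0.26).

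Other genes of the T cell system were counted in lists written beside the members. In the averaged antibody comparison, edgeR called 1.79% of all genes as lower and 1.87% in either direction. Of 19 tested genes of T cell receptor signalling, 3 passed as lower with the antibody and 0 as higher (median log2 −0.74). They were the adaptor genes Grap2 (−2.25 ± 0.44, adjusted p = 0.0295) and Lcp2 (−1.41 ± 0.30, 0.0393) and the Ras activator gene Rasgrp1 (−1.47 ± 0.32, 0.0452). Lcp2, an adaptor that myeloid cells also use, averaged 34.3 ± 22.0 CPM in the IgG group and 41.6 ± 5.80 in the Lupron group, against 15.7 ± 4.96 under anti-CSF1 and 12.9 ± 1.19 under the combination. Of 12 T cell transcription factor genes 0 passed (median −0.74), with Tox at −1.77 ± 0.47 (0.0906), Eomes at 1.94 ± 0.54 (0.107) and Satb1 at −1.90 ± 0.53 (0.108). Of 11 regulatory and helper genes 0 passed (median −0.72), with Cd40lg at −3.01 ± 1.06 (0.174), Ikzf2 at −0.86 ± 0.33 (0.202) and Tnfrsf4 at −0.63 ± 0.32 (0.308). Of 10 homing and survival genes 0 passed (median −0.15), with Cxcr3 at −0.93 ± 0.49 (0.322) and S1pr1 at 0.61 ± 0.34 (0.348). At an adjusted p under 0.05 DESeq2 called 4 signalling and 5 transcription factor genes, and 0 in each of the other 2 lists, where it called 9.54% of all genes. For anti-CSF1 against IgG it called 3 signalling, 4 transcription factor and 1 regulatory or helper gene, and 12.3% of all genes. In the combination against Lupron it called 4 signalling genes, and 1.61% of all genes. For Lupron against IgG it called 1 transcription factor gene, and 2.71% of all genes. IgG replicate 3, lowest of all tumours for the members' sum (15.3 CPM), was highest for the summed transcription factor list. It reached 714.1 CPM there, against 122.0 to 409.1 in the other tumours. Its regulatory and helper sum was also highest (77.01 CPM, against 17.74 to 48.88). Its signalling (62.2 CPM) and homing and survival (40.23 CPM) sums were the lowest. The part of T cells in these lists' levels, and of this tumour in their estimates, was not tested.

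Markers of other cells that carry some of the members were counted as well. The averaged antibody comparison comes first, in which edgeR called 1.87% of all genes and DESeq2 9.54%. Of 8 tested NK genes all 8 had positive estimates (median 1.06) and 0 passed, with Eomes as above, Ncr1 at 1.35 ± 0.38 (adjusted p = 0.108) and Prf1 at 1.82 ± 0.56 (0.136), while DESeq2 called 3. Their summed level ran from 4.95 to 34.0 CPM with IgG, 34.1 to 64.9 with anti-CSF1, 22.0 to 73.8 with Lupron and 54.5 to 77.4 with the combination, and Klra8 and Klra4 had no counts in any library. All 10 dendritic cell genes had negative estimates (median −1.04) and 0 passed, with Clec10a at −2.003 ± 0.48 (0.0636), Itgax at −1.58 ± 0.52 (0.153) and Cd209a at −2.59 ± 0.87 (0.158). Their sum ran from 24.5 to 92.5 CPM with IgG, 21.9 to 42.9 with anti-CSF1, 89.2 to 127 with Lupron and 25.2 to 38.1 with the combination. DESeq2 called 3 of these 10, and 3 of the B and plasma cell genes that follow. Of 8 tested B and plasma cell genes 1 passed, Cd22 (−2.47 ± 0.36, 0.00861), beside Cd79b (−1.50 ± 0.47, 0.14) and Jchain, listed in the table as Igj (−1.95 ± 0.77, 0.209), with a list median of −1.29. By edgeR, 0 genes of these lists passed in the other 5 comparisons. There 0.00663% of all genes passed for anti-CSF1 against IgG and 0% in the rest. For anti-CSF1 against IgG, DESeq2 called 2 dendritic cell and 3 B and plasma cell genes, and 12.3% of all genes. In the combination against Lupron it called 0 and 1 of them, and 1.61% of all genes. For the difference between arms it called 1 and 0, where it called 188 of 15082 genes. In the Lupron comparisons, and for NK genes in all 5, it called 0. The part of these cells in the members' levels was not tested.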

How the data were processed

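RNA from 12 tumours was made into libraries with a NuGen Ovation kit for mouse RNA, per the labels' protocols. The authors deposited raw read counts per gene symbol, not normalized, 1 column per tumour, and each column name matched 1 sample label. Per the submitters' processing notes, bcl2fastq 2.20.0.422, cutadapt 1.8.1, HTSeq 0.6.1 and mm10 were used; aligner, annotation and strandedness: not given in the sources used here.

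Counts were fitted in R 4.3.3 with edgeR 4.0.16: filterByExpr, TMM factors, 1 mean per group over all 12 libraries and robust quasi-likelihood F tests, two-sided, with Benjamini-Hochberg adjustment over all 15082 genes and a threshold of 0.05. The fit was tested on simulated counts. DESeq2 1.42.0, other scalings and filters, and fits without each library were alternatives. Comparisons of 2 groups share control tumours. Ratios were log2 of counts plus 0.5, tested with exact permutation over splits of 12 tumours into 6 and 6.

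Named were the 10 members, the 3 genes with the smallest p in each of 8 other lists (104 entries, 2 matched by an older symbol, 98 tested) and the 5 genes most like Cd4, Cd3e, Cd8a and Foxp3 by Pearson r, without predicted genes and receptor segments; Erg, Krt8, Ptprc and Csf1r were added as checks. Some genes that this rule names are not reported here. Members and lists were chosen with earlier results of these data known.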

Additional observations from a re-analysis of the deposited data

Results flagged for a closer look

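Foxp3 reads per Cd3e read moved in opposite directions with anti-CSF1 in the 2 arms. Without Lupron all 3 antibody tumours lay below all 3 IgG tumours (−1.43 in log2 ratio), and with Lupron all 3 lay above all 3 given Lupron alone (0.98). The arms differed by 2.41 on the log2 scale (2.408), and this difference was not tested. The low Foxp3 counts in anti-CSF1 replicates 2 and 3 (4 and 8 reads) and the high one in IgG replicate 2 (88 reads) enter it. The Cd3e levels enter it too. By edgeR, Foxp3 itself had negative estimates in both arms, −2.25 without Lupron and −0.565 with it, and Cd3e had −0.449 and −1.37. For Foxp3 alone the difference between arms was 1.68 ± 1.13 (adjusted p = 0.846, edgeR). The part of each gene in the ratio was not tested.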

How the results depend on the processing

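Cd4 was the 1 member called for the antibody averaged over Lupron under TMM, RLE and upper-quartile scaling, both other filters, DESeq2 and all 12 fits that left out a library. In anti-CSF1 against IgG, 0 members were called by the fit reported and 1 by DESeq2, and from 0 to 1 when a library was left out. In the combination against Lupron, 0 were called, 1 by DESeq2, 1 in a fit to the compared groups alone, and from 0 to 1 without single libraries; in each case the gene was Cd4. Over all genes, the averaged antibody comparison called 282, DESeq2 1425, and between 65 when anti-CSF1 replicate 3 was left out and 1577 when IgG replicate 1 was.

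Some estimates changed sign, and why was not tested. Not all of them were near 0: in the fit reported, Foxp3 for Lupron against IgG was −0.41 and Cd2 for anti-CSF1 against IgG −0.47. With upper-quartile factors, anti-CSF1 against IgG gave −0.025 for Cd3d and −0.031 for Cd3g. Without single libraries, the same comparison ran from −0.68 to 0.60 for Cd3d, −0.445 to 0.50 for Cd3g, −0.60 to 0.92 for Cd8a, −0.64 to 1.16 for Cd8b1 and −0.80 to 0.32 for Cd2. Lck averaged over Lupron ran from −0.12 to 0.40, Foxp3 for Lupron against IgG from −0.85 to 0.97, and the Cd247 difference between arms from −0.315 to 0.74. The log2 ratio of Cd8a to Cd3e ran from −0.057 to 0.37 and of Foxp3 to Cd3e from −0.50 to 0.071. Correlations trimmed of 2 tumours turned to −0.46 and −0.03, as given above.

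Replicate numbers gave no clear sign of pairing. Deviations of same-numbered pairs of libraries correlated from −0.32 to 0.335, with 7 of 18 above 0.1. Those of differently numbered pairs ran from −0.507 to 0.427, and 4 of 12 libraries correlated best with their own number. With the replicate block, 151 genes were called in the averaged antibody comparison, Cd4 stood at −2.02 (adjusted p = 0.0241), and the Cd247 difference between arms was −0.038. The ratio of Cd4 to Cd3e kept its side of 0.05, unadjusted, in all 12 fits without a library (0.00216 to 0.0346), as did that of Cd4 to Cd247. P was under 0.05 in 8 of them for Cd4 to Cd3g, in 3 each for Cd8a and Cd8b1 and in 1 for Cd3d. With permutation within Lupron strata, Cd4 to Cd8b1 gave an exact p of 0.055. For the ratios, the replicate block flipped the signs of differences between same-numbered tumours with and without the antibody, within each arm. The smallest p it can give is 0.0313. By these sign flips, exact p was 0.0625 for Cd4 to Cd8b1 and 0.0313 for Cd4 to Cd3d, and the other ratios kept their side of 0.05. Cd4 to Cd3e, Cd3g and Cd247 were also at 0.0313. With the replicate block in edgeR, Cd4 did not pass in anti-CSF1 against IgG (adjusted p = 0.154) or in the combination against Lupron (0.0921).

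Low counts limit Foxp3, Cd3d and Cd8b1, each with a library of under 10 reads.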
